A study of Mus musculus with 68 samples.

Results

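Cultures of long-bone mesenchymal stromal cells from 12-month-old mice were compared with cultures from 3-month-old mice, all from mice heterozygous for Ezh2. The comparison took every library labelled Ezh2 Het: 6 at 12 months (S1, S9, S11, S15, S16 and S17) and 3 at 3 months (S8, S10 and S14), or 9 of the 17 biological samples of the series. The donors were Ezh2fl/+:Prrx-1-Cre mice, which have 1 floxed and 1 intact Ezh2 allele and a recombinase driven by Prrx1 regulatory sequence, active in limb mesenchyme. Cells of other origin in the cultures would not be recombined. The controls of the series, used below only where named, were Ezh2+/+:Prrx-1-Cre cultures of the same ages (WT, 8 samples), so both genotypes carry the recombinase. No treatment beyond culture in growth medium is given. The series text states 3 biological samples per group, while the sample labels give 6 for Het at 12 months and 4 for each WT group. The labels were followed, and how many mice stand behind the 6 is not known. They also do not say whether a sample came from 1 mouse or from a pool, and p-values therefore speak only to how much these cultures varied, which may be technical.

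Ezh2 is the main methyltransferase of Polycomb repressive complex 2 (PRC2), which places methyl groups on lysine 27 of histone H3 and keeps developmental genes silent. Mesenchymal stromal cells of bone can form osteoblasts, chondrocytes and adipocytes in culture and supply signals such as the chemokine CXCL12 to blood-forming cells in the marrow. Ezh2 is known in these cells as a brake on bone-forming genes and as a regulator of senescence. The comparison asks which transcripts differ with donor age when 1 Ezh2 allele is floxed.

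Total counts ran from 17326547 to 20001884 in the 3 libraries at 3 months and from 13687876 to 28597221 in the 6 at 12 months. Sex was uneven: 5 of 6 libraries at 12 months and 1 of 3 at 3 months (S14) were labelled female, Xist and Y-linked transcripts matched that label in all 9, and the model carried a term for it. Several libraries stood apart. Levels here are CPM, read counts put on a common library scale with edgeR's TMM factors. S9 held a summed 47140 CPM over the 28 listed macrophage and myeloid markers, against 45.1 to 3159 in the others. S15 had 1678 CPM of the 13 listed mitochondrially encoded genes, against 17950 to 31170. S8 and S10 were the most alike of all pairs, with a chi-square per degree of freedom of 18.52 over genes. The next pair, S10 and S1, crossed the ages, at 62.66. S14 stood apart from S8 (147.2) and S10 (170.6). Both were closer to S1, S11, S16 and S17 at 12 months (62.66 to 127) and farther from S9 and S15 (408.4 to 495.8). S8 and S10 differed by more than technical replicates of 1 library do (1.01 to 1.09), which does not show that they came from separate mice. They were counted as separate samples because the labels list them so; as 1 sample they left 15 of 27 tested chondrocyte genes lower at an unadjusted edgeR p under 0.05 (15 of 26 with both), and 21 genes of the whole table higher against 41. Stromal genes were measured in each library, though unevenly. Pdgfra stood at 231 to 302 CPM at 3 months and 119 to 303 at 12 months. Col1a1 stood at 4849.6 to 10006 CPM at 3 months and 1502 to 12364 at 12 months. The listed collagen chains summed to 9249 CPM in S15, against 28110 to 50330 in the others.

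Values at 3 months are given in the order S8, S10 and S14. Ezh2 itself (Entrez Gene 14056, chromosome 6, 47530274 to 47595270, mm10) was measured at 11.9, 12.7 and 8.57 CPM at 3 months and 8.57 to 25.2 CPM (median 17.9) at 12 months. The groups overlapped through S11, the lowest at 12 months, while the other 5 libraries at 12 months were above all 3 at 3 months. The fitted log2 difference, 12 minus 3 months, was 0.77 ± 0.43 (± SE), with a 95% interval of -0.19 to 1.73, which includes 0 (edgeR p = 0.104). Gene-level counts do not show how much of the floxed allele was recombined. Of the other PRC2 genes, the scaffold Eed stood at 36.1 to 48.5 CPM at 3 months and 41.6 to 59.95 at 12 months, Suz12 at 34.2 to 37.5 CPM at 3 months and 22.5 to 58.2 at 12 months and the paralogue Ezh1 at 37.1 to 73.4 CPM at 3 months and 33.3 to 51.8 at 12 months, each with overlapping groups. Over the 12 tested PRC2 genes the median log2 difference was 0.09 and over 21 PRC1 genes, which compact and ubiquitinate chromatin, -0.08, with 0 members of either list at an unadjusted edgeR p under 0.05.

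No single gene passed the threshold, and among genes with a small unadjusted p more were lower than higher at 12 months. Over all genes tested, 7672 fitted differences were positive and 6615 negative. Of 14287 genes tested, 0 were higher (0%) and 0 lower (0%) at an edgeR adjusted p under 0.05, and the smallest adjusted p was 1.00. At an unadjusted p under 0.05, 277 genes were lower (1.94% of those tested) and 41 higher (0.287%). Even together, these shares are below the 0.05 of genes that such a threshold passes when no gene differs. In this fit the 277 and 41 genes are therefore no excess of small p-values. The groups did not overlap for 221 lower genes (1.55%) and 64 higher ones (0.448%). The median log2 difference over all genes tested was 0.03. With DESeq2, 8 genes were called lower and 1 higher: Col9a1, Cmtm5, Prtg, Lcn2, Penk, Fzd9, Phactr1 and Esm1 were lower and Brinp1 higher. With voom and sample quality weights, Col9a1, Cytl1 and Inmt were called lower and Brinp1 and Gzmb higher, so Col9a1 and Brinp1 were called by both. The counts at an unadjusted p under 0.05 depended on single libraries: they were 143 lower and 19 higher without S14, 457 and 137 without S15, and the higher count was 74 without S9 and 21 without S8. Without S14 the 143 lower genes were 0.977% of those tested.

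Cartilage genes made up the clearest group. The chondrocyte list held 31 genes, of which 26 passed the filter on low counts: 25 were fitted lower at 12 months and 1, Matn3, higher, with a median log2 difference of -1.47. Over all genes tested, 46.3% were fitted lower. At an unadjusted edgeR p under 0.05, 15 of the 26 were lower (57.7%) and 0 higher, against 1.94% and 0.287% of all genes tested. For 11 the groups did not overlap, all of them lower, against 1.55% of all genes tested. The 5 left out by the filter, Ihh, Chad, Snorc, Matn1 and Chrdl2, stood at 3.39 CPM or less in every library. The list score, the mean log2 CPM of the tested members, was 4.77, 4.70 and 6.04 in S8, S10 and S14 and 2.81 to 3.96 over the 6 libraries at 12 months, without overlap. The filter keeps a gene that is high in only 1 group, so the count over tested members is a description.

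**Figure D1:**
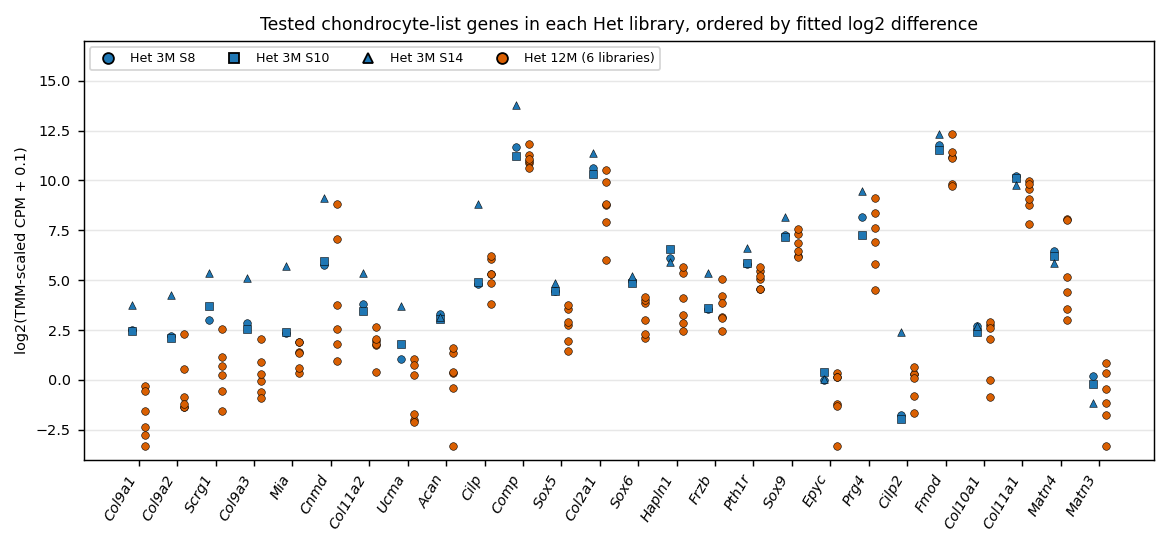
The 26 tested chondrocyte genes in each Het library, as log2 of TMM-scaled CPM plus 0.1 (vertical axis), ordered by fitted difference from Col9a1 on the left to Matn3 on the right; blue symbols are the 3 libraries at 3 months, with S14 as triangles, and orange circles the 6 at 12 months. S14 is the highest blue point for Mia, Comp and Cilp, while for Acan, Sox5, Sox6 and Hapln1 all 3 blue points lie together above the orange ones.

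The members fall into matrix proteins, their regulators and receptors. Type IX collagen, which coats the type II fibrils of cartilage, gave wide gaps. Col9a1 (Entrez Gene 12839, chromosome 1, 24177589 to 24252738) stood at 5.51, 5.32 and 13.6 CPM at 3 months and 0 to 0.722 CPM (median 0.168) at 12 months. All 3 libraries at 3 months were above all 6 at 12 months, and the fitted log2 difference was -5.11 ± 0.95 with a 95% interval of -7.26 to -2.97 (edgeR p = 0.000438). Its partner chain Col9a3 stood at 7.21, 5.73 and 34.2 CPM at 3 months and 0.438 to 4.12 CPM (median 1.01) at 12 months, with a difference of -3.49 ± 0.78 (edgeR p = 0.00147), again without overlap. Col9a2, the third chain, stood at 4.51, 4.19 and 18.8 CPM at 3 months and 0.289 to 4.79 CPM (median 0.399) at 12 months. S16 at 12 months overlapped S8 and S10 for Col9a2, and its difference was -3.68 ± 0.95 (edgeR p = 0.00387).

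Col11a2, a chain of the type XI collagen inside cartilage fibrils, stood at 13.97, 10.7 and 41.6 CPM at 3 months and 1.23 to 6.23 CPM (median 3.57) at 12 months. It differed by -2.60 ± 0.54 (edgeR p = 0.000966). Aggrecan, the large proteoglycan that holds water in cartilage, is encoded by Acan, which stood at 9.82, 8.13 and 8.74 CPM at 3 months and 0 to 2.93 CPM (median 1.18) at 12 months. It differed by -2.39 ± 0.89 (edgeR p = 0.0252). For both genes every library at 3 months was above every one at 12 months, and for Acan the 3 young libraries lay close together. Hapln1, the link protein that binds aggrecan to hyaluronan, stood at 70.02, 93.2 and 60.004 CPM at 3 months and 5.29 to 50.95 CPM (median 13.3) at 12 months, without overlap, with a difference of -1.38 ± 0.64 and an interval of -2.83 to 0.06 that includes 0. Comp, cartilage oligomeric matrix protein, was far more abundant in counts, at 3261, 2358 and 14285 CPM at 3 months and 1581 to 3612 CPM (median 2096) at 12 months. S14 alone set the height of Comp at 3 months, since S8 and S10 lay within the range of the older libraries; its difference was -1.82 ± 0.42 (edgeR p = 0.00184). Col2a1, the main collagen of cartilage, stood at 1554, 1269 and 2641 CPM at 3 months and 64.05 to 1479.5 CPM (median 444) at 12 months, with overlap. It differed by -1.51 ± 0.75, with an interval of -3.20 to 0.18 that includes 0.

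Smaller secreted products stood lower too. Mia, a small protein released by chondrocytes, stood at 5.06, 5.27 and 52.8 CPM at 3 months and 1.17 to 3.68 CPM (median 2.501) at 12 months. It differed by -3.09 ± 0.64 (edgeR p = 0.000924). Otor, a close relative of Mia that is not on the list, stood at 68.4, 62.5 and 259 CPM at 3 months and 2.78 to 34.3 CPM (median 15.4) at 12 months. It differed by -3.38 ± 0.74 (edgeR p = 0.00129). Neither gene overlapped between the groups. Scrg1 stood at 7.91, 12.8 and 40.5 CPM at 3 months and 0.244 to 5.78 CPM (median 1.31) at 12 months, or -3.55 ± 0.87 (edgeR p = 0.00268), and Ucma, made by upper-zone growth plate chondrocytes, at 1.95 to 13.2 CPM at 3 months and 0.131 to 1.95 at 12 months, or -2.60 ± 0.90. Cytl1, a secreted protein of cartilage outside the list that voom called, stood at 1.75, 2.097 and 25.4 CPM at 3 months and 0 to 6.14 CPM (median 0.359) at 12 months, so S15 overlapped S8 and S10; the edgeR difference was -4.91 ± 1.60 (p = 0.0133).

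Regulators and receptors were also fitted lower. Sox9, the transcription factor that starts the chondrocyte programme, stood at 156, 144 and 282 CPM at 3 months and 71.1 to 187 CPM (median 102) at 12 months, with overlap and a difference of -1.01 ± 0.38 (edgeR p = 0.0259). Its partners Sox5 and Sox6, which bind DNA beside it, did not overlap: Sox5 stood at 21.7, 21.5 and 28.995 CPM at 3 months and 2.63 to 13.2 CPM (median 7.03) at 12 months. It differed by -1.55 ± 0.50 (edgeR p = 0.0121). Sox6 stood at 31.1, 29.3 and 36.8 CPM at 3 months and 4.18 to 17.8 CPM (median 11.1) at 12 months, or -1.44 ± 0.50 (edgeR p = 0.0177). Of the receptors that pace the growth plate, Fgfr3, which is not on the list, stood at 66.2, 47.98 and 119.7 CPM at 3 months and 4.78 to 28.3 CPM (median 9.54) at 12 months. It differed by -2.53 ± 0.60 (edgeR p = 0.00222). Pth1r, the receptor of parathyroid hormone and its related peptide, stood at 56.9, 57.1 and 97.5 CPM at 3 months and 23.5 to 49.7 CPM (median 34.99) at 12 months, or -1.12 ± 0.33 (edgeR p = 0.00762). Both receptors were lower in all 6 older libraries than in any young one. Frzb, a secreted Wnt antagonist of articular cartilage, overlapped, at 11.5 to 40.7 CPM at 3 months and 5.38 to 32.98 at 12 months, with a difference of -1.22 ± 0.49 (edgeR p = 0.0335).

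These differences leaned on S14, the only female library at 3 months. Without it, 22 of 26 tested chondrocyte genes were still fitted lower, but 0 of them at an unadjusted edgeR p under 0.05, 1 gene (Cilp2) was higher at that threshold, and the median was -0.75. With S14 left out and the sex term kept, age is told apart from sex by S17 alone, so each value without S14 below is in effect S17 against S8 and S10. With the sex term left out as well, 21 of 26 were lower, 8 of them at an unadjusted edgeR p under 0.05, Cilp2 was again higher, and the median was -0.79. Within sex, the 5 older female libraries against S14 gave a median of -2.22 (26 of 29 lower), and the male library S17 against S8 and S10 gave -0.75 (22 of 26 lower, with no test). For Col9a1 the within-sex values were -5.50 in females and -4.47 in males, for Mia -4.35 and -1.07, and for Col2a1 -2.55 and 0.07, so that Col2a1 differed in sign. In bulk cultures, fewer cells of a type and less RNA per cell cannot be told apart. Leaving out S9 and S15 together left 25 of 26 lower, 16 of them at an unadjusted edgeR p under 0.05, with a median of -1.19.

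**Figure D2:**
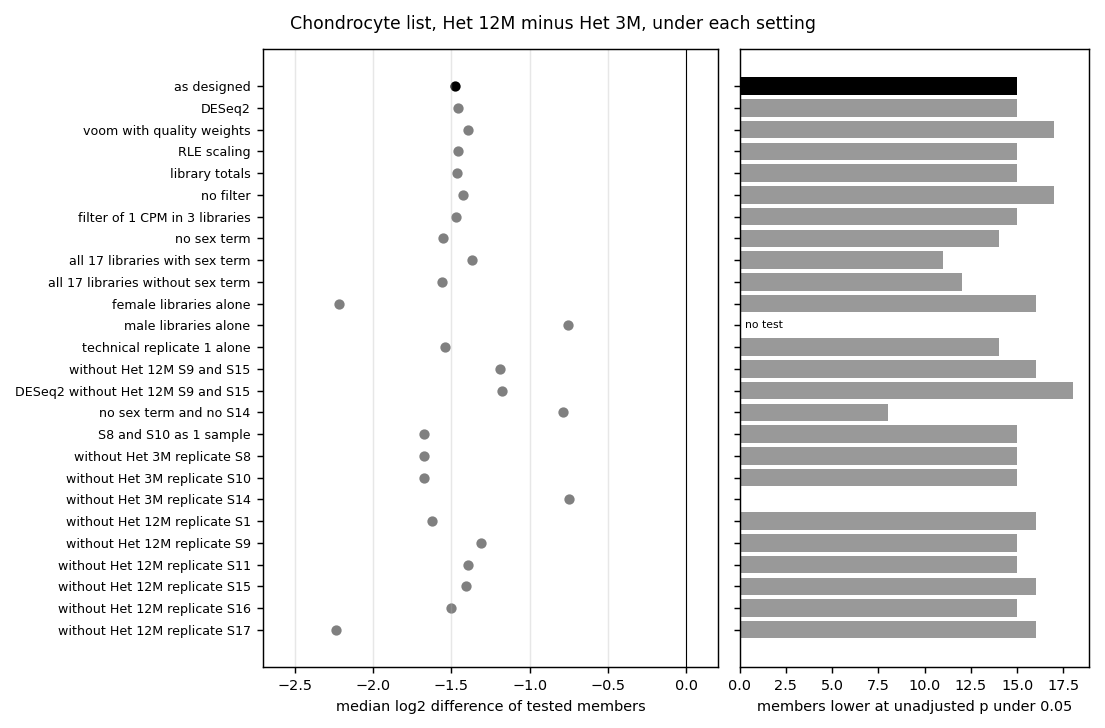
The chondrocyte list under each processing setting (rows), with the median log2 difference of its tested members on the left and the number of members lower at an unadjusted p under 0.05 on the right. The value as designed (black) is -1.47 with 15 members; the row without Het 3M replicate S14 stands at -0.75 with 0 members, and all medians are below 0.

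The promoters of genes from this comparison, read from RefSeq (GRCm38.p6, the assembly of mm10; 250 bases before to 50 after a start site), differed widely in CpG dinucleotides. Mammalian PRC2 is known to gather at CpG-rich promoters. The sequences below, 5′ to 3′ on the gene's strand with each CpG in capitals, are those of 4 lower cartilage or receptor genes, of Lcn2, the gene with the smallest p among those lower, and of Brinp1, that with the smallest p among those higher.
Col9a1, chr1:24177360-24177659, + strand, 0 CpG: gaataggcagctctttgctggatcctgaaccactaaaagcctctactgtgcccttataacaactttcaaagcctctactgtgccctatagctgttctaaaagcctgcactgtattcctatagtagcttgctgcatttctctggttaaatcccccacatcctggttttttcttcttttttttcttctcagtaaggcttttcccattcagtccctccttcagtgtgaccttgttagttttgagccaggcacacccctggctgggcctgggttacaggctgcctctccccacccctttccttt
Col11a2, chr17:34038888-34039187, + strand, 16 CpG: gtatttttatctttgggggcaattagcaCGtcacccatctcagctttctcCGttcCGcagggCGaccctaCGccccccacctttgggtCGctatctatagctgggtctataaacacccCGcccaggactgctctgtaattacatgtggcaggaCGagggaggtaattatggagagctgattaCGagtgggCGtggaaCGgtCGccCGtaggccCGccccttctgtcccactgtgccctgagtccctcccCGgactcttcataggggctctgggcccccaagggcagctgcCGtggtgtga
Acan, chr7:79052976-79053275, + strand, 31 CpG: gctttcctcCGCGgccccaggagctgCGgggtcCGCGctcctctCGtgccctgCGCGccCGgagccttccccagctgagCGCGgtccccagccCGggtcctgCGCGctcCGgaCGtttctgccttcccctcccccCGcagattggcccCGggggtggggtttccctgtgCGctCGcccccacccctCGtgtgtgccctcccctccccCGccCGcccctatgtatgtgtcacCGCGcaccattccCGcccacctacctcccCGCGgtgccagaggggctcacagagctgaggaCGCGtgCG
Fzd9, chr5:135250998-135251297, - strand, 53 CpG: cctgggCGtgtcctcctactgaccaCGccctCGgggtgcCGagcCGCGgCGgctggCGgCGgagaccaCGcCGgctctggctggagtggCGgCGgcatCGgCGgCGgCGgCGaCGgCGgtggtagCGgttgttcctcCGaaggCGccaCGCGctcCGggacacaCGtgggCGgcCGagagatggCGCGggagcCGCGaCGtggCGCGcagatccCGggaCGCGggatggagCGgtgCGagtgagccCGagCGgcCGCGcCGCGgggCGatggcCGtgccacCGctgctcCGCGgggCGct
Lcn2, chr2:32387690-32387989, - strand, 3 CpG: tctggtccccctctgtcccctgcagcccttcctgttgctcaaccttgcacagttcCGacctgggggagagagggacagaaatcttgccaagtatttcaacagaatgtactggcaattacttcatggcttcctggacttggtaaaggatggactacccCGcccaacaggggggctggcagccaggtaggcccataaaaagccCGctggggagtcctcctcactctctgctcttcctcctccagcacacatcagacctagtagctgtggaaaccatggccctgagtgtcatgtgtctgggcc
Brinp1, chr4:68954348-68954647, - strand, 18 CpG: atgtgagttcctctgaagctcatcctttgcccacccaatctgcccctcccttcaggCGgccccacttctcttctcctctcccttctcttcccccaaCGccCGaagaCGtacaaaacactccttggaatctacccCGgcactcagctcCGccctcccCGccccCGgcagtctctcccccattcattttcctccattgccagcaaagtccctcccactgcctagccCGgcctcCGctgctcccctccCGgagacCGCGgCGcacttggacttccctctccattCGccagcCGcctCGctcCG
Col9a1 has a second, internal start site, and the counts do not tell its transcripts apart. The Col9a1 and Lcn2 windows hold 0 and 3 CpG and those of Acan and Fzd9 31 and 53, so lower genes came from both ends of the range. Windows were found for 10918 of the 14287 tested genes, with a median of 20 CpG (quartiles 10 and 28) over 13918 windows. For the 277 lower genes, 213 matched, and their 276 windows had a median of 12 (quartiles 4 and 23); for the 41 higher genes, 27 matched, with a median of 11 (quartiles 5 and 18) over 35 windows. The 20 matched chondrocyte genes had a median of 5.5 over 30 windows. The core letters bound by SOX proteins, ACAATG and ACAAAG, searched on both strands, were in 10 of those 30 windows (33.3%), in 25% of the windows of lower genes and in 19.9% of those of all tested genes. The printed windows do not hold them, while those of Sox5 and Ibsp, not printed, hold 1 each. These shares describe the windows only and were not tested.

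Bone-forming genes showed a partial difference. The osteoblast list had 26 tested members of 30, 17 fitted lower and 9 higher, with a median of -0.48. At an unadjusted edgeR p under 0.05, 6 members were lower (23.1%, against 1.94% of all genes tested). Among them was Pth1r, which the chondrocyte list also holds. Ibsp, the bone sialoprotein of mineralising matrix, stood at 165, 147 and 564 CPM at 3 months and 2.55 to 106 CPM (median 20.9) at 12 months. It differed by -3.29 ± 1.05 (edgeR p = 0.0119). Dlx3, a homeobox factor of osteoblasts, stood at 0.972 to 2.704 CPM at 3 months and 0.131 to 0.6253 at 12 months, or -2.21 ± 0.57 (edgeR p = 0.00386), and Panx3, a channel of late chondrocytes and osteoblasts outside the list, at 9.42, 10.9 and 10.7 CPM at 3 months and 0.131 to 3.61 CPM (median 1.92) at 12 months, or -2.46 ± 0.79 (edgeR p = 0.0121). These 3 genes did not overlap between the ages. Sp7, the osteoblast factor osterix, did not overlap either, at 33.5, 28.8 and 31.01 CPM at 3 months and 0.9803 to 24.7 CPM (median 11.2) at 12 months, but its difference of -1.07 ± 0.81 had an interval of -2.90 to 0.76. Dmp1, a marker of osteocytes, was highest in S14, at 1.95, 2.1996 and 22.1 CPM at 3 months and 0.682 to 2.82 CPM (median 1.26) at 12 months, or -2.66 ± 0.64 (edgeR p = 0.00231). Without S14 Dmp1 differed by -1.11, and without S14 and the sex term by -0.39 (edgeR p = 0.578). Runx2, the master factor of the lineage, stood at 44.9 to 92.9 CPM at 3 months and 25.6 to 65.03 at 12 months and differed by -0.79 ± 0.38, with an interval that includes 0. Alkaline phosphatase, Alpl, at 54.7 to 176 CPM at 3 months and 1.37 to 137 at 12 months, and Col1a1 overlapped, and osteocalcin, Bglap, was too low to be tested. Without S14 the list median was 0.03 and 0 members were at an unadjusted edgeR p under 0.05.

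The Wnt list had 56 tested genes, 37 fitted lower and 19 higher, with a median of -0.22. At an unadjusted edgeR p under 0.05, 6 were lower (10.7%, against 1.94% of all genes tested), or 1 without S14. The Wnt receptor Fzd9 (chromosome 5, 135248938 to 135251047) stood at 38.7, 41.2 and 85.4 CPM at 3 months and 1.12 to 11.4 CPM (median 5.27) at 12 months. It differed by -3.15 ± 0.62 (edgeR p = 0.000639). Wif1, a secreted Wnt inhibitor, stood at 15.6, 16.5 and 163 CPM at 3 months and 0.498 to 14.1 CPM (median 6.32) at 12 months, or -3.27 ± 1.00 (edgeR p = 0.00966). Without S14 Wif1 differed by -0.18, and without S14 and the sex term by -1.30 (edgeR p = 0.161). Neither Fzd9 nor Wif1 overlapped between the ages, though S17 reached 14.1 CPM of Wif1 beside 15.6 in S8. The feedback targets Axin2, at 2.35 to 6.33 CPM at 3 months and 0.654 to 2.79 at 12 months, and Notum, at 1.48 to 5.696 CPM at 3 months and 0.847 to 3.28 at 12 months, were among the 6 although their groups overlapped. In the other direction the ligand Wnt9a stood at 2.66 to 3.46 CPM at 3 months and 3.96 to 6.72 at 12 months, without overlap, with a difference of 0.85 ± 0.40 and an interval of -0.06 to 1.77. The BMP and TGF-beta list (60 tested) had a median of -0.06 (0.10 without S14). It had 4 members (6.67%) lower at an unadjusted edgeR p under 0.05 (1 without S14). They included Gdf10, a ligand of the family, at 111, 102 and 442 CPM at 3 months and 0.828 to 51.7 CPM (median 13.9) at 12 months, or -3.71 ± 0.94 (edgeR p = 0.00335). Without S14 Gdf10 differed by -1.04, and without S14 and the sex term by -2.57 (edgeR p = 0.021). Chrdl1, a BMP antagonist, was also among them, at 94.4 to 467 CPM at 3 months and 13.7 to 236 at 12 months, or -2.34 ± 0.69. Tgif1, a repressor of the pathway's SMAD factors, was higher in all 6 older libraries, at 24.1 to 25.04 CPM at 3 months and 27.3 to 52.3 at 12 months, with a difference of 0.57 ± 0.29 and an interval of -0.08 to 1.22.

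Receptors outside these pathways included Plxnb1, a receptor of semaphorins that osteoblasts use, at 21.04, 16.5 and 33.8 CPM at 3 months and 3.09 to 9.37 CPM (median 4.63) at 12 months. Its groups did not overlap and it differed by -2.12 ± 0.43 (edgeR p = 0.000763). Prtg, a receptor of the immunoglobulin superfamily known from the embryo, stood at 2.404 to 6.56 CPM at 3 months and 0.681 to 2.19 at 12 months, or -2.12 ± 0.43 (edgeR p = 0.000778). Without S14 it differed by -2.17, and without S14 and the sex term by -1.13 (edgeR p = 0.0538). Cmtm5, a membrane protein with a MARVEL domain, stood at 2.15 to 7.42 CPM at 3 months and 0 to 0.588 at 12 months, or -4.26 ± 0.81, and Cdon, a hedgehog co-receptor, at 161 to 225 CPM at 3 months and 73.5 to 177 at 12 months, or -0.81 ± 0.32. Phactr1, a regulator of protein phosphatase 1 and actin, was high only in S14, at 16.3, 13.5 and 109 CPM at 3 months and 7.02 to 17.8 CPM (median 13.7) at 12 months; its difference was -2.21 ± 0.40 with all libraries, -1.08 without S14 and -0.26 without S14 and the sex term (edgeR p = 0.547).

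Several named genes outside the lineage lists encode secreted proteins, and they were picked by p or after their values were seen. Lcn2, lipocalin 2, an iron-carrier-binding protein of innate defence that bone also releases, stood at 24.1, 20.6 and 212 CPM at 3 months and 6.04 to 17.5 CPM (median 8.91) at 12 months. All 6 older libraries were below S8 and S10, and S14 was far above both; the difference was -3.08 ± 0.54 with all libraries (edgeR p = 0.000293), -1.45 without S14 and -1.005 without S14 and the sex term (edgeR p = 0.052). Cp, ceruloplasmin, a copper-carrying ferroxidase, had the same shape, at 66.9, 58.01 and 590.1 CPM at 3 months and 6.53 to 48.4 CPM (median 31.01) at 12 months, or -3.03 ± 0.66 (edgeR p = 0.00127). Serpina3n, a secreted protease inhibitor, was high in all 3 young libraries, at 317, 263 and 381 CPM at 3 months and 13.2 to 119 CPM (median 55.2) at 12 months, or -2.38 ± 0.66 (edgeR p = 0.00547). Penk, which encodes the enkephalin precursor, stood at 2992, 3221 and 6500.5 CPM at 3 months and 36.6 to 1755 CPM (median 479.8) at 12 months, or -4.48 ± 1.40 (edgeR p = 0.0108), -6.22 without S14 and -2.13 without S14 and the sex term (edgeR p = 0.104). Serpine2, an inhibitor of thrombin-like proteases, stood at 1869 to 2591 CPM at 3 months and 428 to 1286 at 12 months without overlap.

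Cxcl12, the chemokine that holds blood stem cells in the marrow, was among the most abundant of these. It stood at 6989, 6871 and 7426 CPM at 3 months and 1338 to 6348 CPM (median 2732) at 12 months, with the 3 young libraries close together and S16, the highest older one, below them. The difference was -1.69 ± 0.62 with an interval of -3.09 to -0.28 (edgeR p = 0.024), -2.37 without S14 and -1.16 without S14 and the sex term (edgeR p = 0.0753). Other niche genes overlapped: Vcam1, an adhesion molecule, stood at 429 to 440.2 CPM at 3 months and 151 to 524 at 12 months and Lepr, the leptin receptor of marrow stroma, at 1.75 to 11.9 CPM at 3 months and 0.498 to 6.86 at 12 months. The stromal and niche list (28 tested) had a median of -0.19. At an unadjusted edgeR p under 0.05, 2 members were lower (7.14%, against 1.94% of all genes tested). Thy1, a surface marker of stromal cells, was higher in all 6 older libraries, at 235 to 295 CPM at 3 months and 307 to 1051 at 12 months, with an interval of -0.28 to 2.05 around 0.88 ± 0.52.

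Vessel-linked genes have to be read beside endothelial markers. Angpt2, a ligand that destabilises vessels, stood at 4.91, 4.14 and 3.57 CPM at 3 months and 0.715 to 2.44 CPM (median 1.297) at 12 months, or -1.85 ± 0.63 (edgeR p = 0.0163), without overlap, and Esm1, endocan, a proteoglycan of activated endothelium, at 73.3, 72.5 and 758 CPM at 3 months and 7.27 to 61.4 CPM (median 38.5) at 12 months, or -3.26 ± 0.66 (edgeR p = 0.000802). Of 18 endothelial markers, 14 were tested, 9 fitted lower and 5 higher. Over all 18 the summed level was 17.7 to 78.2 CPM at 3 months, highest in S8 and S10, and 9.87 to 33.7 at 12 months. Pecam1 stood at 11.1, 6.803 and 0.345 CPM and Cdh5 at 7.36, 5.17 and 0 CPM in S8, S10 and S14, against at most 2.63 and 1.12 at 12 months. Esm1 was highest in S14, where Cdh5 and Kdr were at 0. Egfl7, also on the endothelial list, was not low there, at 7.71, 6.85 and 7.82 CPM in S8, S10 and S14. It stood at 2.82 to 5.75 CPM at 12 months, without overlap. The part of endothelial cells in these results was not tested.

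**Figure D3:**
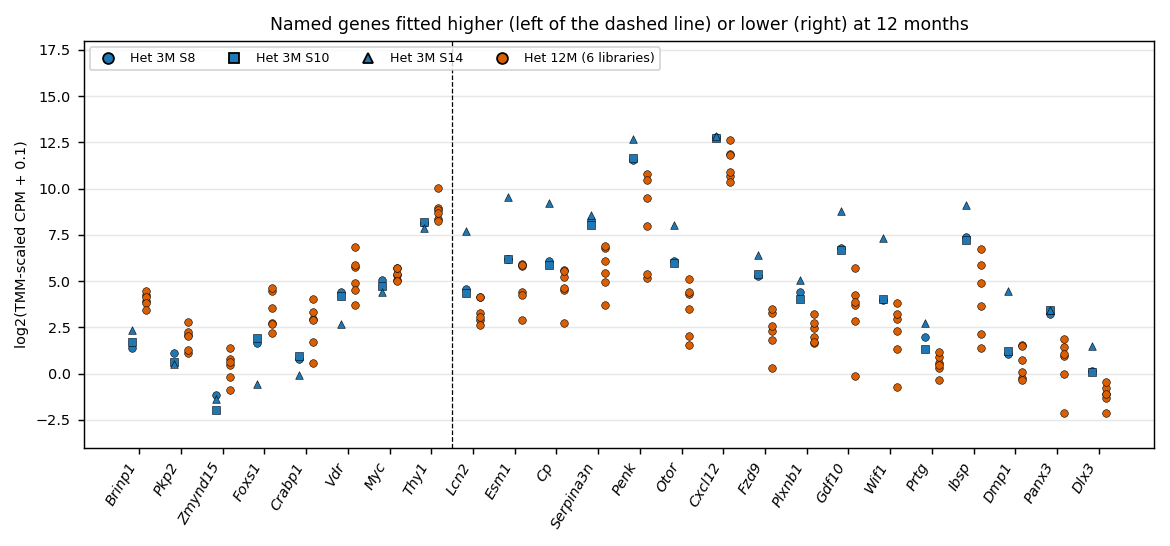
Named genes in each Het library, as log2 of TMM-scaled CPM plus 0.1 (vertical axis), with genes fitted higher at 12 months left of the dashed line and genes fitted lower right of it; blue is 3 months (S14 as triangles) and orange 12 months. Brinp1 and Cxcl12 separate the ages with the 3 blue points close together, while Lcn2, Esm1, Cp and Wif1 show S14 far above S8 and S10.

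Fat-cell genes had a small median difference. The adipocyte list had 23 tested members, 13 fitted lower and 10 higher, with a median of -0.17. At an unadjusted edgeR p under 0.05, 3 were lower (13%, against 1.94% of all genes tested), or 0 without S14. Acsl1, which activates long-chain fatty acids, stood at 40.5 to 49.4 CPM at 3 months and 28.7 to 39.4 at 12 months, without overlap, or -0.58 ± 0.23 (edgeR p = 0.0351). Acot1, a cytosolic acyl-CoA thioesterase outside the list, stood at 5.36 to 6.85 CPM at 3 months and 0.974 to 3.398 at 12 months, or -1.74 ± 0.49 (edgeR p = 0.00621), also without overlap. The adipocyte factors Pparg, at 18.5 to 32.5 CPM at 3 months and 16.2 to 31.4 at 12 months, and Cebpa, at 55.96 to 63.3 CPM at 3 months and 41.6 to 197 at 12 months, and the hormone gene Adipoq, at 2.15 to 3.28 CPM at 3 months and 0 to 3.07 at 12 months, overlapped.

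Hox genes, classic Polycomb targets that keep positional identity in limb cells, were split between lower and higher values. Of 34 tested Hox genes, 18 were fitted lower and 16 higher, with a median of -0.06. At an unadjusted edgeR p under 0.05, 4 were lower (11.8%, against 1.94% of all genes tested). They were Hoxa3 and the neighbours Hoxd8, Hoxd9 and Hoxd10. Along chromosome 2 the order runs Hoxd13, Hoxd12, Hoxd11, Hoxd10, Hoxd9, Hoxd8, Hoxd3, Hoxd4 and Hoxd1 by start, and several of these annotations overlap. Hoxd10 (chromosome 2, 74684273 to 74695106) stood at 0.451, 0.358 and 20.1 CPM at 3 months and 0 to 8.86 CPM (median 2.702) at 12 months, Hoxd9 at 4.36, 4.04 and 21.98 CPM at 3 months and 0.443 to 14.97 CPM (median 5.098) at 12 months and Hoxd8 at 4.76, 7.21 and 27.7 CPM at 3 months and 1.498 to 15.9 CPM (median 10.2) at 12 months. S14 was the highest library for all 3, S17 the lowest, and S8 and S10 lay among the older ones. The differences were -1.57 ± 0.42 for Hoxd8 (edgeR p = 0.00456), -2.33 ± 0.73 for Hoxd9 (p = 0.0106) and -3.00 ± 0.98 for Hoxd10 (p = 0.0136). Without S14 and without the sex term they were 0.75, 0.50 and 3.00, so their direction turns when both are left out. Counting by strand is not stated, so reads of overlapping or antisense genes there cannot be told apart. Hoxd13, at the far end, stood at 2.805, 3.02 and 0.288 CPM at 3 months and 0.0654 to 14.5 CPM (median 2.45) at 12 months, with a difference of 2.42 ± 2.11 and an interval of -2.34 to 7.18. Of 61 other developmental transcription factors tested, 42 were fitted lower, with a median of -0.33. At an unadjusted edgeR p under 0.05, 3 were lower (4.92%, against 1.94% of all genes tested): Dlx3, Nkx3-2 and Foxc1. Nkx3-2, a factor of immature chondrocytes, stood at 4.06 to 15.8 CPM at 3 months and 1.01 to 4.22 at 12 months, or -1.84 ± 0.64. Without S14 Nkx3-2 differed by -0.06, and without S14 and the sex term by -0.93 (edgeR p = 0.167). Foxc1, a factor of the marrow niche, stood at 129.5 to 200.2 CPM at 3 months and 56.5 to 134 at 12 months, or -0.77 ± 0.33.

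In the other direction Brinp1 was the clearest gene. It encodes a protein best known from neurons, where it restrains the cell cycle (chromosome 4, 68761372 to 68954397). It stood at 2.504, 3.17 and 5.12 CPM at 3 months and 10.9 to 22.4 CPM (median 16.2) at 12 months: every older library was above every young one. The difference was 1.85 ± 0.32 with an interval of 1.14 to 2.57 (edgeR p = 0.000236), 1.95 without S14, 2.54 without S14 and the sex term, 1.83 in females and 1.95 in the males. Pkp2, a desmosome protein, stood at 1.32 to 2.05 CPM at 3 months and 2.09 to 6.95 at 12 months, or 1.65 ± 0.48 (edgeR p = 0.00707), and Foxs1, a forkhead factor of perivascular cells, at 3.11, 3.73 and 0.575 CPM at 3 months and 4.53 to 24.4 CPM (median 9.04) at 12 months, or 3.11 ± 1.04 (edgeR p = 0.0151), both without overlap. Zmynd15, a zinc finger gene known from the testis, was low throughout, at 0.153 to 0.351 CPM at 3 months and 0.433 to 2.55 at 12 months, or 2.34 ± 0.76.

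Other genes near the top overlapped between the ages. Crabp1, a retinoic acid binding protein, stood at 1.65, 1.84 and 0.863 CPM at 3 months and 1.41 to 16.1 CPM (median 7.54) at 12 months, or 2.79 ± 0.85 (edgeR p = 0.00955), and only S16 lay among the young libraries. Vdr, the vitamin D receptor, stood at 21.6, 18.01 and 6.21 CPM at 3 months and 13.2 to 116 CPM (median 41.9) at 12 months, or 2.29 ± 0.86 (edgeR p = 0.0252). Myc, the growth factor-induced transcription factor, stood at 33.8, 26.6 and 20.9 CPM at 3 months and 31.9 to 53.03 CPM (median 40.99) at 12 months, or 0.88 ± 0.27 (edgeR p = 0.0102); S8 lay among the older libraries. Tfr2, an iron sensor, stood at 0.288 to 2.46 CPM at 3 months and 1.05 to 8.48 at 12 months, or 2.58 ± 0.75, the amino acid transporter Slc7a5 at 29.97 to 74.3 CPM at 3 months and 31.4 to 135 at 12 months, or 1.05 ± 0.40, Aass, an enzyme of lysine breakdown, at 0.1502 to 0.403 CPM at 3 months and 0.292 to 2.52 at 12 months, or 2.43 ± 0.87, and Ly6f at 0.1502 to 0.358 CPM at 3 months and 0.299 to 1.44 at 12 months, or 2.41 ± 0.76. Gzmb, a cytotoxic granule protease, reached 9.16 CPM in S17 and at most 1.80 in the other older libraries, against 0 to 0.972 at 3 months, for 4.26 ± 1.52.

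Growth-related lists were fitted higher nearly as a block, with few or no members at an unadjusted p under 0.05. Over all genes tested, 7672 of 14287 were fitted higher. Members of a list were measured in the same libraries, so their number is not a number of independent results. All 45 tested mitosis genes were fitted higher, with a median of 0.68 and 0 at an unadjusted edgeR p under 0.05. Their score was 3.18 to 3.58 at 3 months, 3.83 to 4.32 in 5 older libraries and 2.47 in S11, and Mki67 stood at 23.3 to 30.7 CPM at 3 months and 2.48 to 74.9 at 12 months. Of 43 DNA replication genes 39 were fitted higher, with a median of 0.43, and of 80 ribosomal protein genes 78, with a median of 0.59. Among the latter Rpl38 stood at 20.5 to 31.4 CPM at 3 months and 28.7 to 101 at 12 months, or 1.48 ± 0.47 (edgeR p = 0.0116). At an unadjusted edgeR p under 0.05, 3 ribosomal members were higher (3.75%, against 0.287% of all genes tested). They were 8 without S15, 1 without S14 and 2 without S9. Near-identical pseudogenes could share the reads of ribosomal protein genes. Of 72 nuclear genes of oxidative phosphorylation 70 were fitted higher, with a median of 0.42. S15 was the highest library for all 4 lists; without it the medians were 0.58, 0.26, 0.33 and 0.17, and without S14 they were 0.35, 0.12, 0.26 and 0.07. The direction of each median was the same under TMM, RLE and library-total scaling.

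The main cell cycle inhibitors of senescence overlapped between the ages. Cdkn2a, which encodes the cell cycle inhibitors p16 and p19 and is a known Ezh2 target, stood at 130.5, 147 and 73.4 CPM at 3 months and 57.03 to 414 CPM (median 131) at 12 months, with S15 the highest, and Cdkn1a, the p21 gene, at 315 to 681 CPM at 3 months and 351 to 810.2 at 12 months. Of 43 tested genes of the senescence secretome and NF-kB 27 were fitted higher, with a median of 0.19. The 5 at an unadjusted edgeR p under 0.05 were lower (11.6%, against 1.94% of all genes tested): Lcn2, Serpine2, Cxcl5, Il33 and Icam1. Il6 stood at 1.15 to 17.9 CPM at 3 months and 0.327 to 32.9 at 12 months. Of the fetal growth genes, Igf2 stood at 209.9, 257 and 18.8 CPM at 3 months and 3.66 to 43.2 CPM (median 37.96) at 12 months and H19 at 800.1, 996 and 72.8 CPM at 3 months and 2.16 to 415 CPM (median 229) at 12 months. For both, S8 and S10 were above all 6 older libraries and S14 was within their range. Hmga2 stood at 13.96 to 28.02 CPM at 3 months and 5.83 to 40.9 at 12 months, and Lin28b had no count in any library.

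Several list differences followed 1 library, and their counts stand beside 7672 of 14287 genes fitted higher over all genes tested. The 24 tested macrophage and myeloid markers were all fitted higher, with a median of 3.23 but 0 at an unadjusted edgeR p under 0.05, and the median was 1.69 without S9 and 0.72 without S14. Interferon-stimulated genes (62 tested, 47 fitted higher) had a median of 0.40, which was -0.26 without S15 and 1.08 without S14. Contractile genes of smooth muscle and pericytes (18 tested, 14 fitted higher) had a median of 0.85, which was -0.00 without S14, where Acta2 stood at 228 CPM against 1939.6 and 2711 in S8 and S10. Genes of the endoplasmic reticulum stress response (33 of 39 fitted higher, median 0.37) and of hypoxia (37 of 43, median 0.35) had medians of 0.12 and 0.02 without S14. For mitochondrially encoded genes 10 of 11 differences were negative; their median was -0.33, and -0.18 without S15. Schwann and neural crest markers (9 tested) had a median of -0.85, with Sox10 at 1.78 CPM or less in every library. Osteoclast markers (8 tested) had a median of 0.95, and lymphoid, erythroid, muscle and epithelial lists had 5 tested members or fewer each. The part of the myeloid cells of S9 and of the low mitochondrial reads of S15 in the differences above was not tested.

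**Figure D4:**
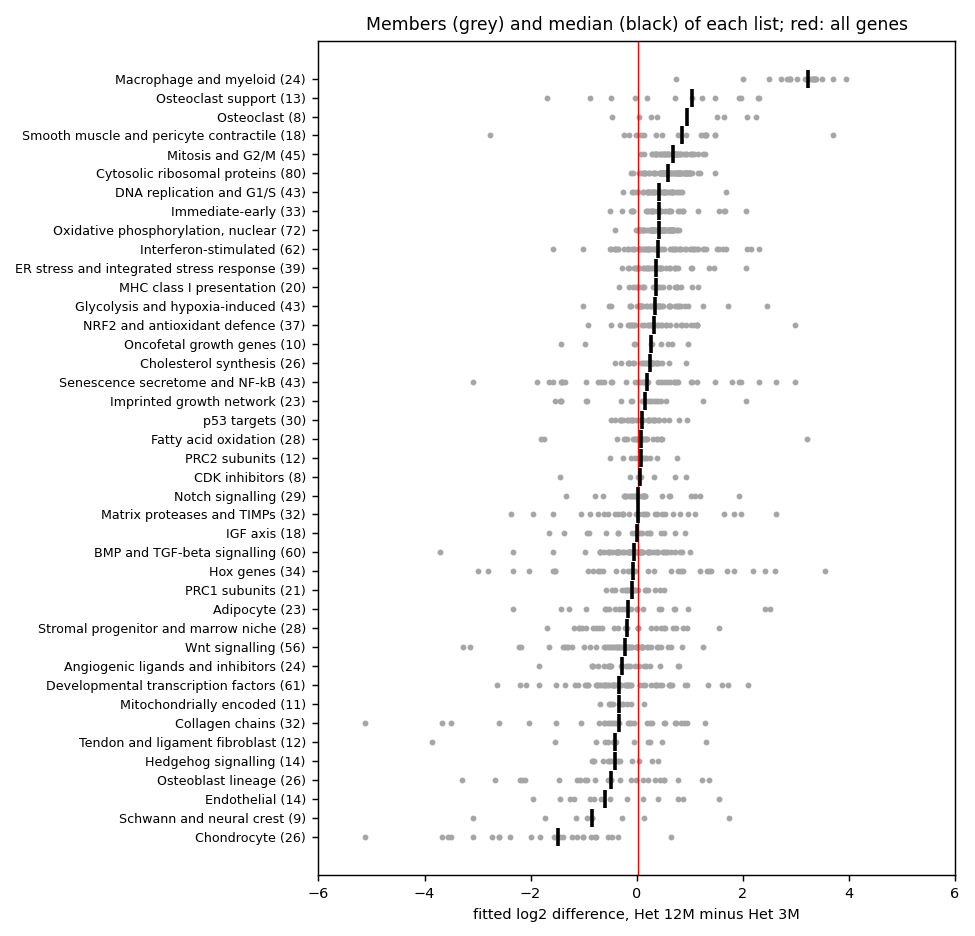
Fitted log2 differences (horizontal axis, Het 12M minus Het 3M) of the tested members of each gene list with 8 or more tested members (grey points; their number in brackets) and the list median (black bar); the red line is the median of all genes tested, 0.03. The chondrocyte list has the lowest median, -1.47, and the macrophage and myeloid list the highest, 3.23.

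**Figure D5:**
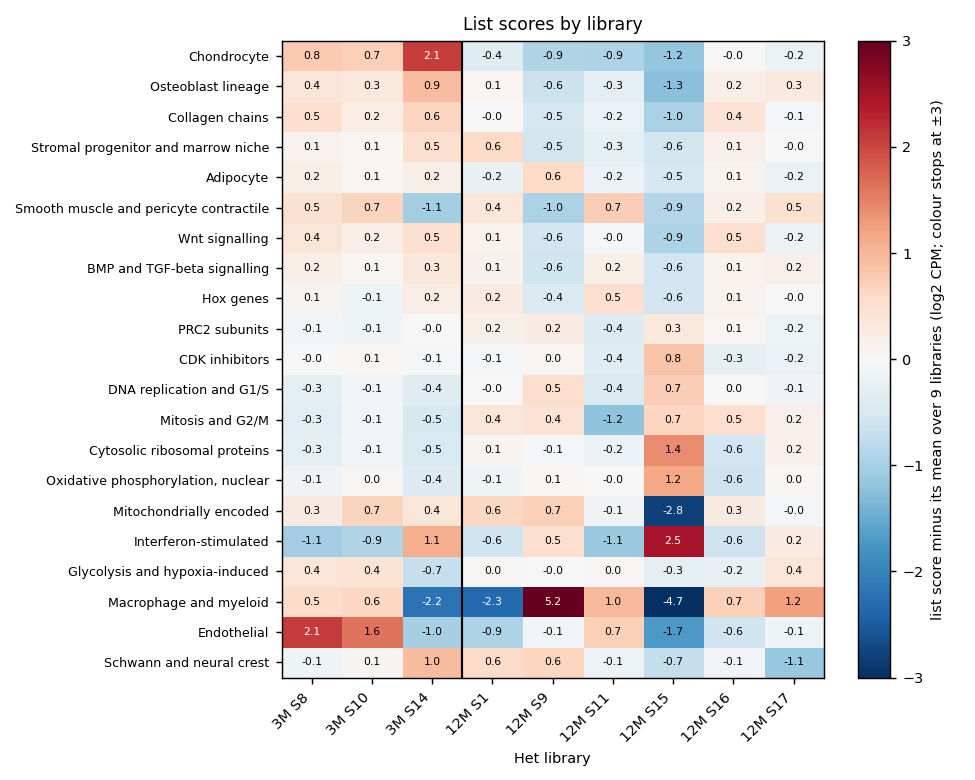
Scores of selected lists (rows) in each Het library (columns, 3 months left of the line), as the mean log2 CPM of the tested members minus its mean over the 9 libraries; colour and printed number give the value, and colour stops at 3 either way. The chondrocyte row is above 0 in the 3 libraries at 3 months and at or below 0 in the 6 at 12 months, while the macrophage row is high in S9 and the interferon row in S15.

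WT cultures of the same ages were used to ask whether the age difference depends on genotype, in 1 model over the 17 libraries with levels scaled together. Of 14897 genes, 0 passed the interaction test in either direction (0%), with a smallest edgeR adjusted p of 0.398; at an unadjusted p under 0.05, 572 (3.84%) had a lower and 397 (2.66%) a higher age difference in Het. Of 29 chondrocyte genes tested there, the age difference was negative for 26 in Het (median -1.37) and for 7 in WT (median 1.00). The interaction was at an unadjusted edgeR p under 0.05 for 13 of the 29, all with a lower age difference in Het. This was not particular to cartilage genes. At that threshold the age difference was also lower in Het for 4 of 11 Schwann and neural crest markers (median interaction -3.23). The same held for 7 of 35 collagen chains (-0.83, 1 gene higher) and 6 of 26 osteoblast genes (-0.62, 1 higher). It held for 8 of 57 Wnt genes (-0.14, 1 higher) and 4 of 16 hedgehog genes (-0.43). Some lists went the other way. At that threshold 17 of 43 genes of glycolysis and hypoxia (median interaction 0.94, 1 gene lower) and 10 of 39 of endoplasmic reticulum stress (median 0.56) had a higher age difference in Het. The 5 sex-linked genes were all lower, with a median of -6.50. Pth1r stood at 32.5 ± 6.94 CPM in WT 3M and 88.6 ± 38.5 in WT 12M (SD, n = 4 each). The Het values on that scale were 70.2 ± 22.7 at 3 months (SD, n = 3) and 35.1 ± 10.2 at 12 months (SD, n = 6). The age difference of Pth1r was 1.45 ± 0.34 in WT and -0.99 ± 0.33 in Het, an interaction of -2.44 ± 0.47 (edgeR p = 0.000106). Mia differed by 2.79 ± 0.95 in WT, an interaction of -5.84 ± 1.28 (edgeR p = 0.000359), and Frzb by 1.82 ± 0.49, an interaction of -2.83 ± 0.67 (edgeR p = 0.000715).

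Of genes outside the cartilage list, Serpina3n and Otor had contrasts of the same signs, while the interaction of Brinp1 was positive. The WT age difference was 1.12 ± 0.57 for Serpina3n, with an interaction of -3.12 ± 0.81 (edgeR p = 0.00152), and 2.93 ± 1.22 for Otor, with -6.09 ± 1.68 (edgeR p = 0.00238). Brinp1 stood at 11.2 ± 5.45 CPM in WT 3M and 9.52 ± 4.70 in WT 12M, a WT difference of -0.11 ± 0.39 and an interaction of 2.16 ± 0.60 (edgeR p = 0.00249). Each of these interactions missed the threshold after adjustment, at 0.398 to 0.415. Sex-linked transcripts went against the labelled sex in all 4 WT 12M libraries, so either their sex labels or the identity of these libraries is in doubt, and with it every WT age difference and interaction given here. Without the sex term the interaction was still at an unadjusted edgeR p under 0.05 for 13 of 29 chondrocyte genes, with a median of -2.53. The 13 chondrocyte genes were 7 without WT 12M S7, with a median interaction of -1.79 against -2.64, and 3 without Het 3M S14 (with 1 in the other direction), with -2.005; they were 9 without WT 3M S4.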

How the data were processed

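RNA from bone stromal cultures was sequenced from TruSeq RNA v2 libraries, per the labels' protocols. The deposited values are raw read counts per gene (27179 Entrez Gene IDs); the submitters' processing notes name Subread, featureCounts and mm10, with versions not given in the sources used here. The 4 technical replicates of each sample were summed. Symbols came from RefSeq for 25275 IDs; the 1904 others held 0.573% of counts.

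Genes were filtered with edgeR 4.0.16 (filterByExpr), scaled by TMM and tested with its quasi-likelihood test on the 9 Het libraries (R 4.3.3), with terms for age group and labelled sex and Benjamini-Hochberg adjustment at 0.05. The interaction used all 17 libraries. DESeq2 1.42.0, limma 3.58.1 (voom with quality weights), other scalings, filters and sample sets were alternatives. The same fit was also run on simulated counts with no sex difference and no outlying libraries. That run therefore does not show how the fit performs with libraries such as S9 and S15. With 3 libraries at 3 months, the spread between cultures limits precision.

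The comparison and its 46 gene lists were chosen with earlier results of these data known. Named genes are Ezh2, the 12 smallest p in each direction, the 8 largest differences per direction with p under 0.01, 5 CPM in a group and no overlap, the 3 smallest p per list in its median's direction and 1 in the other, and fixed anchors. Named after their values were seen were Col9a2, Comp, Cilp, Cilp2, Ucma, Hapln1, Cytl1, Inmt, Sox5, Sox6, Fgfr3, Panx3, Axin2, Notum, Serpina3n, Penk, Serpine2, Cxcl5, Il33, Icam1, Hoxa3, Hoxd1, Hoxd3, Hoxd4, Hoxd11, Hoxd12, Hoxd13, Pecam1, Cdh5, Kdr, Sox10 and the untested chondrocyte genes.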

Additional observations from a re-analysis of the deposited data

Results flagged for a closer look

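Dixon's criterion was applied to the 6 Het libraries at 12 months and flags 1 library far from the other 5. Chance meets it for about 1 group in 20 if values are normally distributed. That rate may not hold for gene levels, which were tested as CPM without a log. The criterion was met by 11 of 113 values tested. S15 stood apart in 5 of them: its score was 6.329 for CDK inhibitors (others 5.12 to 5.529), 5.035 for mitochondrially encoded genes (others 7.746 to 8.56) and 7.369 for ribosomal proteins (others 5.37 to 6.113), and it held 4.117 CPM of Col9a3 (others 0.4384 to 1.737) and 6.143 CPM of Cytl1 (others 0 to 0.5056). S11 had the lowest mitosis score, 2.466 (others 3.829 to 4.322), and the highest Thy1, 1051 CPM (others 307.2 to 505.3). S17, the male library, had the highest Gdf10, 51.7 CPM (others 0.828 to 19.08), and Gzmb, 9.162 CPM (others 0 to 1.802). Col9a2 was highest in S16, at 4.794 CPM (others 0.2889 to 1.345), and Scrg1 in S9, at 5.777 CPM (others 0.2435 to 2.112).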

How the results depend on the processing

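Genes called were 0 higher and 0 lower with edgeR, 1 and 8 with DESeq2, 2 and 3 with voom and quality weights, and 52 and 71 with DESeq2 without S9 and S15 (added after seeing the data), where edgeR called 0. The 41 genes higher at an unadjusted p under 0.05 became 148 with DESeq2, 411 with voom, 91 without a filter, 77 without the sex term, 110 and 233 over all 17 libraries with and without that term, 331 without S9 and S15, 72 without the sex term and S14, and 21 with S8 and S10 as 1 sample; leaving out 1 library gave 19 to 137. The 277 lower became 916 with voom, 420 without a filter, 554 without S9 and S15, and 98 without the sex term and S14; leaving out 1 library gave 143 to 457. The interaction called 12 higher and 26 lower without Het 12M S9, S15 and WT 12M S6. Without the sex term and S14, Frzb (0.34), Chrdl1 (0.11), Plin4 (0.44), Hoxd8 (0.75), Hoxd9 (0.50) and Hoxd10 (3.00) turned positive; Col2a1 was 0.069 in male libraries alone, and ran from -2.61 without S17 to 0.072 without S14. The cause was not tested. Of 68 genes with printed differences, 60 had an unadjusted edgeR p under 0.05, against 12 without S14 and 24 without S14 and the sex term. No paired analysis was possible because the shared numbers in the labels mark technical replicates, which were summed, and sample numbers do not recur between groups.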
